A study of Mus musculus with 12 samples.

Results

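The genes described here are 10 genes of a zinc finger cluster on the distal part of mouse chromosome 2: Gm14440, Gm14435, Gm14434, Gm14308, Gm14306, Gm14305, Gm14295, Gm14296, Gm14419 and Gm14410. They were taken from the deposited expression table by gene symbol, and each symbol names 1 of its 47069 rows. They were chosen by the measured difference of their FPKM between the genotypes in these libraries, so that all differences between WT and Cdk1 Liv-/- libraries are given for them as a description and without a test. The study deleted the cell cycle kinase gene Cdk1 in the liver and asked how the transcriptome responded. RNA was sequenced from P14 mice in 4 groups of 3 libraries, namely isolated hepatocytes and whole liver of WT mice, and isolated hepatocytes and whole liver of Cdk1 Liv-/- mice, which carry Cdk1 flox/flox and Albumin-Cre. Albumin-Cre is active in hepatocytes and their embryonic precursors, which also give rise to cholangiocytes, and is not aimed at the other cells of a whole liver sample, such as endothelial and Kupffer cells. The sources used here give neither the strain of the mice nor whether the WT mice were littermates that carried the floxed allele, so a difference in genetic background cannot be told apart from the deletion in any genotype comparison below. Values are FPKM, fragments scaled by transcript length and by the number of mapped reads.

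Zinc finger proteins of the Krüppel type bind DNA through an array of fingers, each folded around 1 zinc ion, and the contacts of successive fingers spell out the DNA sequence that is recognised. Many of them start with a Krüppel-associated box, which recruits the corepressor Trim28 and, through it, enzymes that methylate histones and DNA. Such genes multiply by tandem duplication, most members of a cluster resemble each other closely, and they are known above all for the silencing of transposable elements. Clusters of this kind differ in gene content between mammals and between mouse strains.

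In GENCODE M21 (build mm10), the annotation used here for positions, all 10 members are protein-coding genes on chromosome 2. Gm14440 stands apart at chr2:175275125-175286805 on the plus strand. The other 9 follow in the order Gm14435 at chr2:176423594-176435761 (plus), Gm14434 at chr2:176473278-176486783 (minus), Gm14308 at chr2:176613364-176636344 (minus), Gm14306 at chr2:176670522-176719085 (plus), Gm14305 at chr2:176708328-176721813 (plus), Gm14295 at chr2:176798612-176811223 (plus), Gm14296 at chr2:176892509-176927809 (minus), Gm14419 at chr2:177000956-177012787 (plus) and Gm14410 at chr2:177183453-177206421 (minus). Gm14306 is named Zfp973 in that annotation, and it overlaps Gm14305 on the same strand, so reads from the shared stretch cannot be assigned by strand. The transcripts of 9 of the 10 members carried a tandem repeat with a period of 84 bases, which is the length of the coding sequence of 1 finger with its linker. When a transcript was compared with itself after a shift of 84 bases, 48.4% (Gm14440) to 79.7% (Gm14295) of its bases were identical. Gm14435 had its best shift at 132 bases with 31% identity, and it is the 1 member without the repeat.

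The repeat is shown on 3 successive units of the last exon (exon 4 of 4) of a Gm14295 transcript, printed 5′ to 3′ on the plus strand of GRCm38 from the GENCODE M21 transcript. Capitals mark the 11 bases with most copies in the members' transcripts (106 copies, with 104 and 102 for the next 2 stretches of 11 bases), which code for the last histidine of a finger and the start of the linker to the next one. They stand at chr2:176809595-176809678, chr2:176809679-176809762 and chr2:176809763-176809846.
Gm14295 unit 1: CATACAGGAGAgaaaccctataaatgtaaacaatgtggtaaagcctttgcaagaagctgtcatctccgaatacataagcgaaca
Gm14295 unit 2: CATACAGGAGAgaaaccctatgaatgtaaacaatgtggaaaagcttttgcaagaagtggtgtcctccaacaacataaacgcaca
Gm14295 unit 3: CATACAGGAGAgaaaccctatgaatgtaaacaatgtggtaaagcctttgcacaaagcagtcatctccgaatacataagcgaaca

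Units 1 and 3 differ at 4 of 84 bases, units 1 and 2 at 13 and units 2 and 3 at 14. The linker sequence CATACAGGAGA, searched without overlap to another motif and on both strands, was found 22 times in Gm14295, 15 times in Gm14419, 12 times in Gm14305, 11 times each in Gm14440, Gm14434 and Gm14308, 9 times in Gm14410, 8 times in Gm14306 and 7 times in Gm14296, each in the transcript that held most copies. Gm14435 held 0 copies. At least 3 copies on the transcript strand were present in 9 of 10 members and in 0.233% of all 55450 genes of the annotation, and 3 copies of the reverse complement in 0 members and 0.002% of all genes.

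The stretches before the start sites of the members were compared as well. RefSeq (GRCm38.p6) gave a window of 250 bases before to 50 bases after the start site for 7 members, Gm14440, Gm14434, Gm14308, Gm14306, Gm14305, Gm14295 and Gm14410. All 7 shared a block of 54 identical bases, which was found in 30 of 32851 windows of all genes (0.0913%), each of them in this cluster, where they belong to 26 genes. The 100 bases that end with this block are shown for the distinct sequences among the members and for Gm14403, a neighbour that was higher in Cdk1 Liv-/- hepatocytes. Capitals mark AGCCAATCAGA, which holds a CCAAT box. The windows are those of Gm14295 (chr2:176798452-176798551, plus), Gm14305 (chr2:176708158-176708257, plus), Gm14434 (chr2:176486837-176486936, minus) and Gm14403 (chr2:177498051-177498150, plus).
Gm14295: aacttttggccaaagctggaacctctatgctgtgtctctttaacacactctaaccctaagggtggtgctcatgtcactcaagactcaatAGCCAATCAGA
Gm14305: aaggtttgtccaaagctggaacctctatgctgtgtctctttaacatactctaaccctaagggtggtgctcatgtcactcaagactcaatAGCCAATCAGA
Gm14434: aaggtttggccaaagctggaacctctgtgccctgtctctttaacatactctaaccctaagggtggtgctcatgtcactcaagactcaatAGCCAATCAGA
Gm14403: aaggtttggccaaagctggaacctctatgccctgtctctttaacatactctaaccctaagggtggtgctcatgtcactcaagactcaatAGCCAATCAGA

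The window of Gm14295 is identical to those of Gm14440 and Gm14306, and that of Gm14434 is identical to those of Gm14308 and Gm14410. Over the 21 pairs of members the windows differed at 0 to 6 of 100 bases. Gm14403 differed from Gm14434 at 1 base and from Gm14295 at 5, while Gm2007, a neighbour that was lower in both compartments, was identical to Gm14434. Among the other genes of the region tested below, the block stood in 7 of 7 genes called lower that have a window, in 1 of 2 called higher and in 9 of 16 not called. Of those not called, Gnas, Atp5e, Ctsz, Tubb1, Slmo2 and C330013J21Rik lack the block and hold 0 copies of the linker. Among the genes not called that have a window and carry the linker, only Zfp931 lacks the block. A link of the block to being lower was not tested. AGCCAATCAGA is the end of the 54-base block, so its presence in the windows of all 7 members follows from how it was taken. On either strand it stood in 0.664% of all windows, and its core CCAAT in 37.4% of all windows. TATAAA, on either strand, stood in none of the 7 (0 of 7) and in 13.6% of all windows. These matches describe letters only and say nothing of a factor that binds them.

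Since reads were 75 bases long, the share of 75-base stretches that a member has to itself limits how well its reads can be told from those of its relatives. RSEM, with which the authors quantified genes, divides a read among all genes it matches, so the levels of near-identical genes are estimates that depend on each other. Gm14440 had 0.0% such stretches, as all of them recur in the neighbour Gm14288, whose FPKM was listed at 0 in 11 of 12 libraries and at 0.26 in the other. Gm14434 had 0.1% and Gm14308 2.6%, followed by Gm14419 with 9.5%, Gm14435 with 14.1%, Gm14410 with 19.6%, Gm14305 with 19.9%, Gm14306 with 24.0%, Gm14295 with 37.1% and Gm14296 with 46.8%. Several members share most of their stretches with another. Gm14434 had 96.9% of its stretches in common with Gm14308 and 63.5% with Gm14305. Gm14419 had 63.8% in common with Gm14295, and Gm14435 had 73.8% in common with Gm14440. Gm14306 had at most 21% of its stretches in common with any one other member, and Gm14440 at most 32.0%. Gm14296 shared at most 0.6% of its stretches with any other member, and its nearest relative was 2210418O10Rik with 39.9%.

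**Figure D1:**
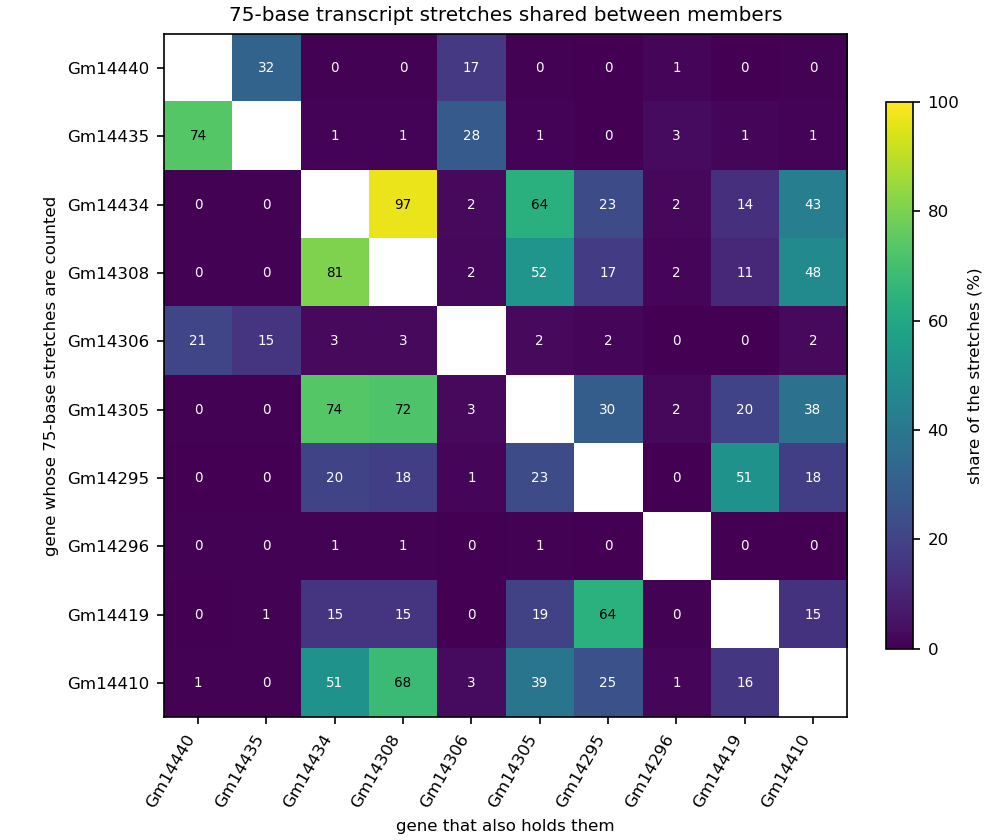
Share of the 75-base stretches of each member (rows) that also occur in each other member (columns), in percent, over GENCODE M21 transcripts. Gm14434, Gm14308, Gm14305 and Gm14410 form 1 group with shares of 37.7% to 96.9%, and Gm14296 shares little with any member.

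The libraries were checked before the members were described. One FPKM on a transcript of 1 kb stood for an estimated 34.7 to 49.7 reads, so 1 read on such a transcript was worth 0.02 to 0.029 FPKM and members listed at 0 can still have been transcribed at a level too low to be detected at this depth. Cdk1, measured over the whole gene, fell from 25.5 ± 4.41 to 9.45 ± 2.47 (SD, n = 3) in hepatocytes and from 23.2 ± 1.95 to 12.6 ± 1.35 in whole liver (limma, adjusted p = 0.0148 and 0.00353). The study used male mice, but Cdk1 Liv-/- whole liver replicate 3 had 158.32 FPKM of Xist, against at most 0.14 in the other 11 libraries, and 0 FPKM for each of 4 genes of the Y chromosome (Kdm5d, Uty, Ddx3y and Eif2s3y). The summed FPKM of 9 hepatocyte markers was 103100 to 114600 in WT and 69530 to 74490 in Cdk1 Liv-/- hepatocytes, and that of 5 cholangiocyte markers 14.6 to 30.09 against 66.78 to 124. In whole liver the hepatocyte markers summed to 105700 to 110600 against 78730 to 83490 and the cholangiocyte markers to 45.83 to 62.19 against 138.6 to 270.2. The summed markers of Kupffer cells were 145.3 to 496.1 in WT and 106.7 to 166.8 in Cdk1 Liv-/- hepatocytes, and 371.4 to 426 against 491.7 to 672.4 in whole liver. Endothelial markers summed to 74.81 to 203 against 32.49 to 49.74 in hepatocytes and to 95.17 to 137 against 116.4 to 148.5 in whole liver. Stellate cell markers summed to 96.81 to 286.4 against 66.5 to 89.63 in hepatocytes and to 269.2 to 277.4 against 348.6 to 414 in whole liver, without overlap in either. Erythroid markers summed to 72.01 to 340.3 against 18.84 to 71.21 in hepatocytes and to 676.3 to 1293 against 710 to 1104 in whole liver, and lymphocyte markers to 2.97 to 8.63 against 2.25 to 2.5 and to 14.23 to 14.8 against 10.25 to 17.68. All detected markers of these lists were above 0 in all 12 libraries, and their part in the results below was not tested. In such bulk samples, fewer cells of a type and less RNA per cell cannot be told apart.

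All 10 members were lower in Cdk1 Liv-/- than in WT libraries, in hepatocytes and in whole liver. Their FPKM together came to 20.6 ± 3.58 (SD, n = 3) in WT hepatocytes and 2.45 ± 0.123 in Cdk1 Liv-/- hepatocytes, 11.9% of the WT mean. In whole liver they came to 23.3 ± 1.12 in WT and 2.15 ± 0.387 in Cdk1 Liv-/- samples, 9.23% of the WT mean, and to 1.96 without Cdk1 Liv-/- replicate 3. Single WT values lay between 0.4 and 5.09 FPKM in hepatocytes and between 0.65 and 4.92 in whole liver, none at 0, whereas 7 of 30 values in Cdk1 Liv-/- hepatocytes and 9 of 30 in Cdk1 Liv-/- whole liver were listed at 0. In every member each of the 6 Cdk1 Liv-/- libraries was below each of the 6 WT libraries, which held for 2.42% of the 17386 genes tested. Within hepatocytes the 3 Cdk1 Liv-/- libraries lay below the 3 WT libraries in 10 of 10 members and in 13.4% of all genes tested, and within whole liver in 10 of 10 and in 8.94%. Because the members were selected for this difference, nothing follows from these counts.

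On the scale of log2(FPKM + 0.5), the difference of Cdk1 Liv-/- minus WT ranged from -2.95 to -1.09 in hepatocytes, with a median of -1.48, beside a median of 0.05 over all genes tested. In whole liver it ranged from -3.23 to -1.22 with a median of -1.67, beside 0.18 over all genes. The added 0.5 FPKM makes these differences smaller than the ratios of the FPKM themselves. All 10 members had a mean of at least 0.1 FPKM over the 12 libraries and passed the filter on low values. Gm14308, Gm14305, Gm14295 and Gm14296 passed it through their WT libraries, since their means were under 0.1 in both Cdk1 Liv-/- groups.

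**Figure D2:**
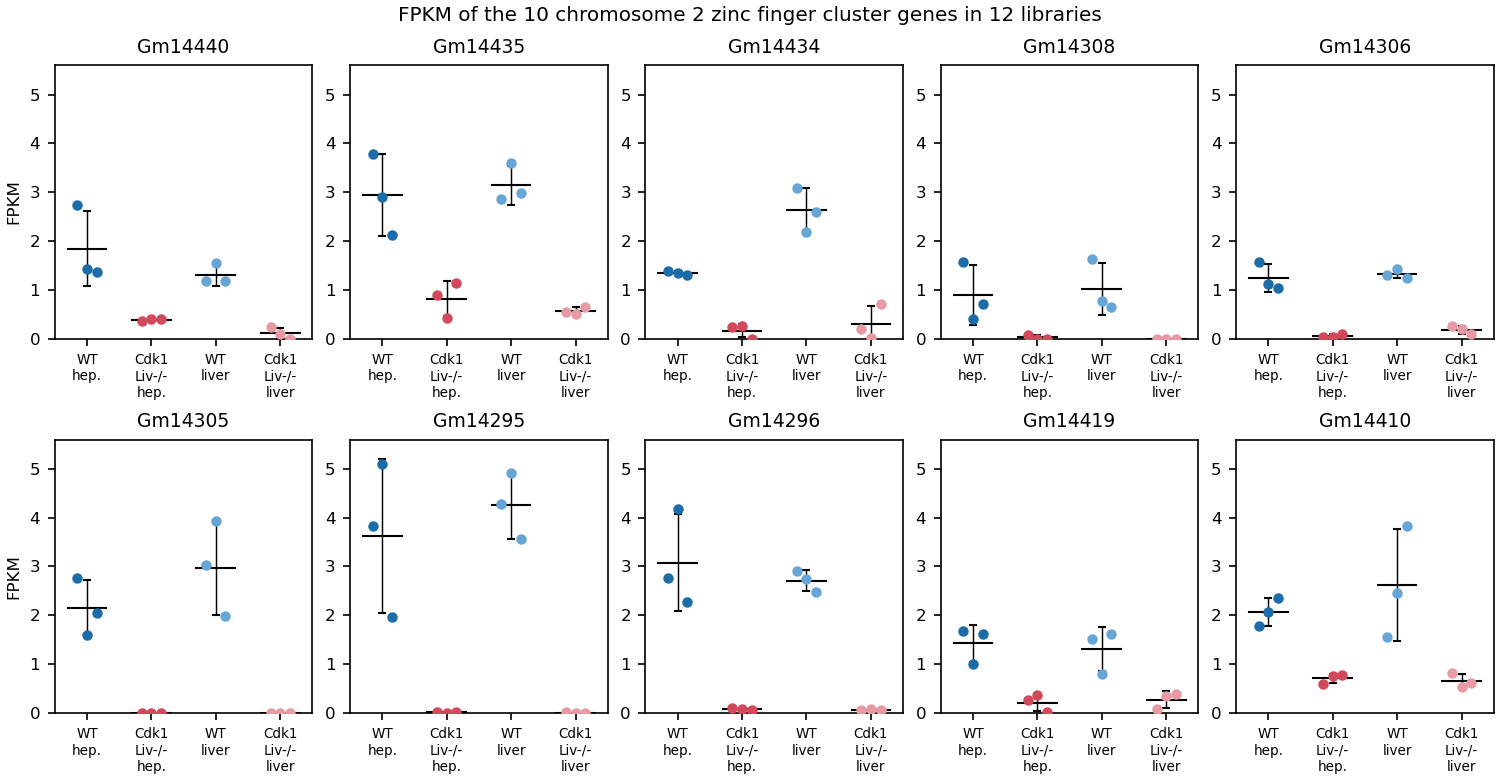
FPKM of each member in the 12 libraries (points), by group, with the group mean (line) and SD (bar), n = 3. In every panel the points of both Cdk1 Liv-/- groups lie below those of both WT groups, and those of Gm14305, Gm14295, Gm14296 and Gm14308 lie at 0.1 or below.

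Gm14305, Gm14295, Gm14296 and Gm14308 were at 0.1 FPKM or below in each of the 6 Cdk1 Liv-/- libraries. Gm14305 was at 2.77, 1.60 and 2.05 FPKM in the WT hepatocyte libraries and at 3.02, 3.92 and 1.99 in WT whole liver, and it was listed at 0 in all 6 Cdk1 Liv-/- libraries. Gm14295, the member with most linker copies and the highest WT mean, was at 3.83, 5.09 and 1.96 in WT hepatocytes and at 4.27, 4.92 and 3.56 in WT whole liver. Its Cdk1 Liv-/- values were 0.01, 0 and 0.01 in hepatocytes and 0.01, 0 and 0 in whole liver. These 2 genes thus had no more than a trace of reads in any Cdk1 Liv-/- library, while no WT library was under 1.6 FPKM. Gm14296 was at 2.77, 4.18 and 2.27 in WT hepatocytes and at 2.90, 2.74 and 2.48 in WT whole liver, against 0.10, 0.08 and 0.06 and 0.05, 0.07 and 0.06 in the Cdk1 Liv-/- libraries. Its low values were even across the 6 libraries, and its WT means were 38.4 times (hepatocytes) and 45.1 times (whole liver) those of Cdk1 Liv-/- samples. On the log2 scale with 0.5 added, the differences were -2.38 and -2.76 for Gm14305, -2.95 and -3.23 for Gm14295 and -2.59 and -2.52 for Gm14296, each in hepatocytes and whole liver. Gm14308 was at 1.57, 0.40 and 0.70 in WT hepatocytes and at 1.62, 0.77 and 0.65 in WT whole liver, which made it the weakest member in both WT groups. In Cdk1 Liv-/- samples it was listed at 0.07, 0 and 0 in hepatocytes and at 0 in all whole liver libraries. Its WT libraries were spread widely, with an SD of 0.608 on a mean of 0.89 in hepatocytes, and the lowest of them exceeded the highest Cdk1 Liv-/- value.

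Gm14306 and Gm14434 each had at least 1 Cdk1 Liv-/- library above 0.1 FPKM. Gm14306 was at 1.56, 1.12 and 1.04 in WT hepatocytes and at 1.31, 1.42 and 1.24 in WT whole liver, a narrow spread. Its Cdk1 Liv-/- values were 0.03, 0.03 and 0.10 in hepatocytes and 0.26, 0.19 and 0.09 in whole liver. Of the WT mean of Gm14306, 4.3% remained in hepatocytes and 13.6% in whole liver, and the hepatocyte share was 2.42% without Cdk1 Liv-/- replicate 3. Gm14434 was at 1.39, 1.35 and 1.30 in WT hepatocytes and at 3.09, 2.19 and 2.60 in WT whole liver, the only member whose WT whole liver libraries all exceeded its WT hepatocyte libraries. Its Cdk1 Liv-/- values were 0.23, 0.26 and 0 in hepatocytes and 0.19, 0.01 and 0.71 in whole liver, the highest of them in replicate 3, the library with Xist. Gm14434 kept 12.1% of its WT mean in hepatocytes, or 18.2% without Cdk1 Liv-/- replicate 3, and 11.5% in whole liver, or 3.81% without the library with Xist.

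Gm14440, Gm14419, Gm14435 and Gm14410 kept 14.7% to 34.0% of their WT means in hepatocytes and 8.46% to 25.0% in whole liver, where Gm14440 kept less than Gm14306 (13.6%) and Gm14434 (11.5%). The share of Gm14440 in whole liver was 3.85% when Cdk1 Liv-/- replicate 1 was left out. With replicate 3 left out it was 12.7%, above that of Gm14434. Gm14419 kept 9.46% in hepatocytes without Cdk1 Liv-/- replicate 2. Gm14440 was at 2.73, 1.43 and 1.37 in WT hepatocytes and at 1.18, 1.55 and 1.17 in WT whole liver, against 0.36, 0.40 and 0.40 and 0.23, 0.10 and 0 in Cdk1 Liv-/- samples. Gm14419 was at 1.68, 0.99 and 1.61 in WT hepatocytes and at 1.51, 0.79 and 1.62 in WT whole liver, against 0.26, 0.36 and 0.01 and 0.08, 0.34 and 0.39. The Cdk1 Liv-/- libraries were nearly equal for Gm14440 in hepatocytes and uneven in the other 3 cases. Gm14435, the member without finger repeats, which RefSeq lists as a pseudogene, was at 3.79, 2.91 and 2.12 in WT hepatocytes and at 2.85, 3.59 and 2.98 in WT whole liver. In Cdk1 Liv-/- samples it was at 0.90, 0.43 and 1.13 and at 0.55, 0.50 and 0.65. Since it was chosen for being lower and had 73.8% of its stretches in common with Gm14440, nothing follows from this about the array. Gm14410 was at 1.78, 2.07 and 2.35 in WT hepatocytes and at 1.56, 2.46 and 3.83 in WT whole liver. Its Cdk1 Liv-/- values of 0.59, 0.75 and 0.77 in hepatocytes and 0.82, 0.53 and 0.61 in whole liver were the highest share that any member kept, 34.0% and 25.0% of the WT means. The smallest log2 differences were those of Gm14410 with -1.09 in hepatocytes and Gm14419 with -1.22 in whole liver.

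The share of the WT level that remained was set beside the share of a transcript that is distinct. The 2 members with most distinct stretches, Gm14296 and Gm14295, kept at most 2.6%, but Gm14308 with 2.6% of distinct stretches kept 2.62% in hepatocytes (0% without Cdk1 Liv-/- replicate 1, 4.24% without WT replicate 1) and was listed at 0 in whole liver. Over the 10 members, Spearman's rho between the distinct share and the remaining share was -0.52 in hepatocytes and -0.14 in whole liver, a description only, since the members share reads and libraries.

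**Figure D3:**
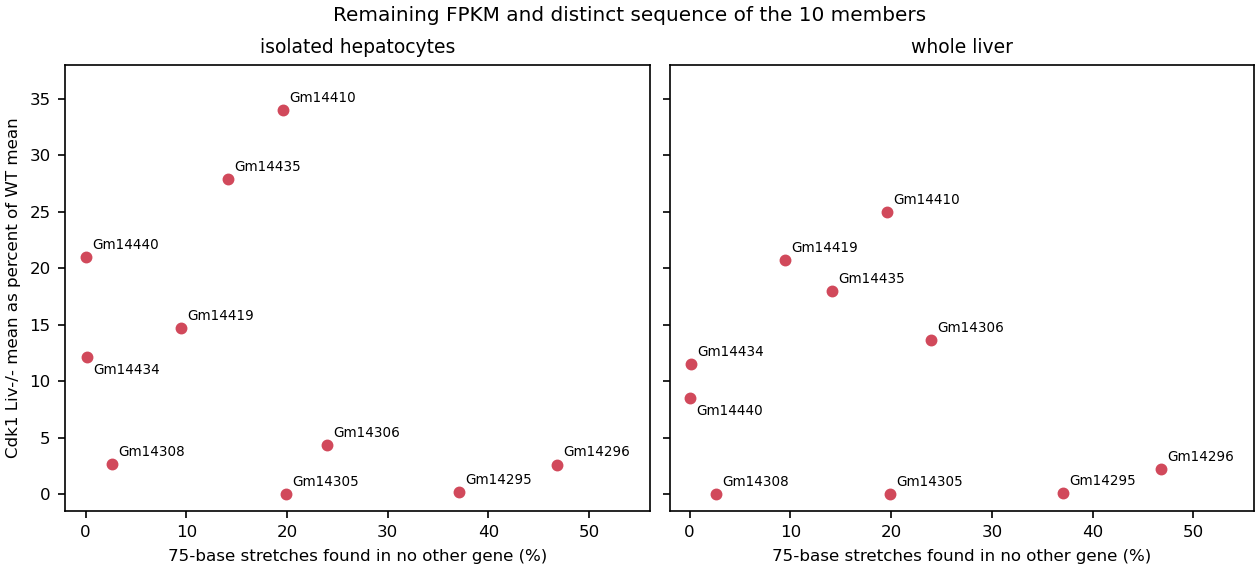
Mean FPKM in Cdk1 Liv-/- samples as a percentage of the WT mean (vertical axis) against the percentage of 75-base stretches found in no other gene (horizontal axis), 1 point per member. Gm14296 and Gm14295, at the right, lie near 0, while members with fewer distinct stretches range from 0% to 34%.

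Within WT samples the order of the levels was loose. In hepatocytes the means ran from 3.63 for Gm14295, 3.07 for Gm14296 and 2.94 for Gm14435 down to 1.24 for Gm14306 and 0.89 for Gm14308, and the libraries of each gene overlapped with those of the next one in the order. In whole liver Gm14295 led with 4.25 and Gm14435 followed with 3.14, and the only step without overlap was between Gm14410, whose lowest library was 1.56, and Gm14306, whose highest was 1.42. FPKM are per length of transcript, so these levels can be set side by side, within the limits of shared reads.

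The difference between compartments had no part in the choice of the members and was tested. Hepatocytes minus whole liver, averaged over the genotypes, was between -0.48 and 0.45 on the log2 scale for the members, with a median of -0.06 beside -0.14 over all genes tested, and it was below 0 in 7 of 10. At an adjusted p of 0.1 (limma, all 12 libraries, Benjamini-Hochberg over 17386 genes), 1 member was higher in hepatocytes and 1 lower, where 9.94% of all genes were higher and 40.5% lower. Gm14440 was higher by 0.45 ± 0.15 (SE, adjusted p = 0.0338, limma). Gm14434 was lower, at -0.48 ± 0.20 (SE, adjusted p = 0.0719, limma), and its call was lost in 11 of 21 other settings, among them without Cdk1 Liv-/- whole liver replicate 3, the library with Xist (-0.31, adjusted p = 0.120, limma), and without any one of 6 other libraries (adjusted p = 0.106 to 0.154). The other 8 members had adjusted p of 0.153 to 0.971, which does not show that their levels were equal. Of these, Gm14306 passed with a pseudocount of 0.1 (adjusted p = 0.0745, limma). It also passed without Cdk1 Liv-/- whole liver replicate 3 (0.0924) or WT hepatocyte replicate 1 (0.0542, limma). Gm14305 passed without WT whole liver replicate 3 (0.0772, limma). No member reached a difference of 1 on the log2 scale between compartments. For Gm14308, Gm14305, Gm14295 and Gm14296, which were at 0.1 FPKM or below in both Cdk1 Liv-/- groups, that difference rests on the WT libraries and its average over the genotypes is held near 0.

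No member had the same 12 values as another gene, while 75 of the genes tested did share all values with another. Equal values above 0 in at least 3 libraries, shared with another gene of the region, were found for 2 members. Gm14296 and 2210418O10Rik, which holds no stretch of its own and recurs wholly in Gm14296, had equal values in all 6 Cdk1 Liv-/- libraries and in 0 WT libraries. Gm14306 and Gm8923, which has 82.9% of its stretches in common with Gm14306, had equal values in 7 libraries, 5 Cdk1 Liv-/- and 2 WT. Both pairs differed in the remaining libraries.

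To see how far along the chromosome the difference extends, the other genes between 1 Mb before the first and 1 Mb after the last member were tested, 41 of 97 of which passed the filter. In hepatocytes 7 were called lower and 3 higher (17.1% lower, against 2.17% of all genes tested lower and 4.2% higher), where a call needs an adjusted p no higher than 0.1 together with a log2 difference of 1 or more in size. In whole liver 7 were called lower and 1 higher, against 1% and 4.59% of all genes. Together 9 genes were called lower, 5 of them in both compartments, and all 9 carry at least 3 copies of the linker, as do 28 of the 41 genes tested and all 3 genes called higher. Between 33.9% and 100% of their 75-base stretches recur in a member, so their values are not independent of those above, and their part of the shared reads was not tested. The 3 genes called higher share 1.8% to 17.7% of their stretches with members. Gm11007 and Gm2007, which had the same 12 values, stand as 2 genes in each of these counts of genes called lower.

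The largest decreases were those of Gm11007 and Gm2007, whose 12 values were identical and whose stretches all recur in members. Their row read 6.09, 2.44 and 2.56 FPKM in WT hepatocytes and 0, 0 and 1.10 in Cdk1 Liv-/- hepatocytes, and 5.14, 5.6 and 5.12 in WT whole liver against 0 in all 3 Cdk1 Liv-/- libraries. The log2 difference was -2.40 ± 0.55 (SE, adjusted p = 0.0454, limma) in hepatocytes and -3.53 ± 0.07 (adjusted p = 3.17e-05) in whole liver. The hepatocyte call was lost without Cdk1 Liv-/- replicate 1 (adjusted p = 0.123), Cdk1 Liv-/- replicate 2 (0.124) or WT replicate 1 (0.125, limma), and with the replicate number as a block (0.115), without moderation (0.140) and without a filter (0.227). Gm4631, which has 59.5% of its stretches to itself, was at 6.12, 5.91 and 5.36 in WT hepatocytes and at 2.26, 2.46 and 2.83 in Cdk1 Liv-/- hepatocytes, with differences of -1.06 and -1.07 (adjusted p = 0.00694 and 0.000619, limma). Gm8923 (-1.60 and -1.54) and Gm6710 (-1.27 and -1.19) were called lower in both compartments as well. Gm4245 (-2.20) and Gm2026 (-1.46) were called lower in hepatocytes only, and Gm4724 (-1.11) and 2210418O10Rik (-2.18) in whole liver only. No test of a difference between the compartments passed the threshold for any of these 4. Gm4245 has no stretch of its own, and all its stretches recur in Gm4723. In whole liver it was at 2.64, 0 and 2.55 in WT and at 1.4, 0 and 2.22 in Cdk1 Liv-/- libraries. The hepatocyte call of Gm6710 was lost without any one of 5 of the 6 libraries (adjusted p = 0.117 to 0.175, or a difference of -0.85 without Cdk1 Liv-/- replicate 2, limma), that of Gm2026 without WT replicate 1 (adjusted p = 0.108), both also with the block (0.131 and 0.106), without moderation (0.177 and 0.105) and without a filter (0.308 and 0.156), and the whole liver call of Gm4724 without Cdk1 Liv-/- replicate 1 (-0.93) or WT replicate 2 (-0.95).

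**Figure D4:**
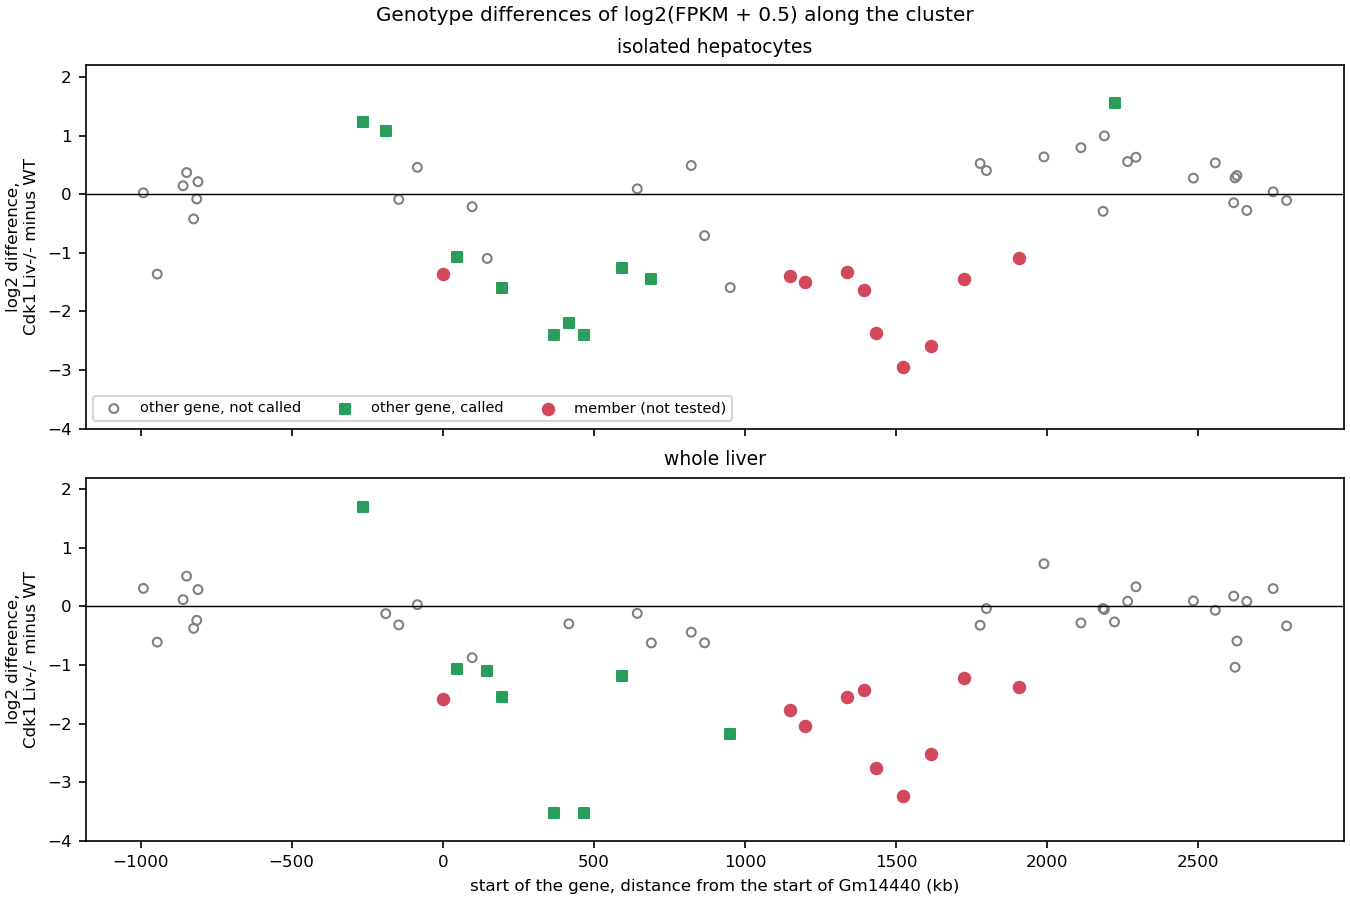
Difference of log2(FPKM + 0.5), Cdk1 Liv-/- minus WT, of each member and each other gene tested against the distance of its start from that of Gm14440 in kb, in hepatocytes (top) and whole liver (bottom). Members and the genes called lower lie between the first and the last member, and the genes called higher lie outside that span. Genes not called lie inside the span as well, some of them above 0 in hepatocytes. The span was set by members chosen for being lower.

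Beyond both ends of the row of members, genes of the same family had other patterns. Genes with the linker that were not called also lie between the ends of the row. They are Gm8898 (0.09 in hepatocytes and -0.12 in whole liver), Gm14401 (0.40 and -0.04) and Gm14421 (0.52 and -0.32). Gm4723 (-0.21 and -0.87) and Gm2004 (-0.71 and -0.62) belong to them too. Gm14444, which starts before Gm14440, was listed at 0 in all WT hepatocyte libraries and at 0.03, 0 and 0 in WT whole liver, but at 0.39, 1.14 and 0.59 and at 0.84, 1.55 and 1.14 in Cdk1 Liv-/- samples. Its log2 differences were 1.22 ± 0.22 and 1.70 ± 0.16 (SE, adjusted p = 0.0231 and 0.00205, limma), opposite in sign to those of the members, and the hepatocyte difference was 0.98 without Cdk1 Liv-/- replicate 2. Gm14409, past Gm14410, was at 0 to 0.09 FPKM in the WT libraries and at 0.24 to 0.47 in Cdk1 Liv-/- libraries, with 0.73 ± 0.09 (adjusted p = 0.00404, limma) in whole liver. Gm14403, with 84.3% distinct stretches and nearly the same sequence before its start as Gm14434, was at 1.78, 1.48 and 0.99 in WT and at 5.25, 4.75 and 5.11 in Cdk1 Liv-/- hepatocytes, a difference of 1.55 ± 0.19 (adjusted p = 0.00674, limma). In whole liver it was at 1.72, 1.00 and 1.24 against 1.01, 0.94 and 1.04 (-0.26, adjusted p = 0.227, limma).

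The summed FPKM of zinc finger genes in the window was set beside that of the members, without a test. The 48 other genes with at least 3 linker copies summed to 48.7 ± 9.54 (SD, n = 3) in WT and 45.5 ± 2.34 in Cdk1 Liv-/- hepatocytes, with overlapping libraries, and to 54.6 ± 4.77 and 32.6 ± 3.10 in whole liver, without overlap. With the 10 members the sum over 58 genes went from 69.3 ± 12.5 to 47.95 ± 2.23 in hepatocytes and from 77.9 ± 4.85 to 34.8 ± 3.17 in whole liver, and in both the Cdk1 Liv-/- libraries lay below the WT libraries. That joint sum includes the members, which were selected for this difference, so nothing follows from its lack of overlap. The 48 window genes without the linker summed to 445.5 ± 43.7 and 467.9 ± 43.2 in hepatocytes and to 545.8 ± 16.8 and 609.9 ± 29.2 in whole liver. Most of this came from Gnas (179 and 182 in hepatocytes), Atp5e (145 and 137) and Ctsz (81.3 and 104). These share no stretch with the zinc finger genes, so the sum tells little of other cluster genes without the linker.

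**Figure D5:**
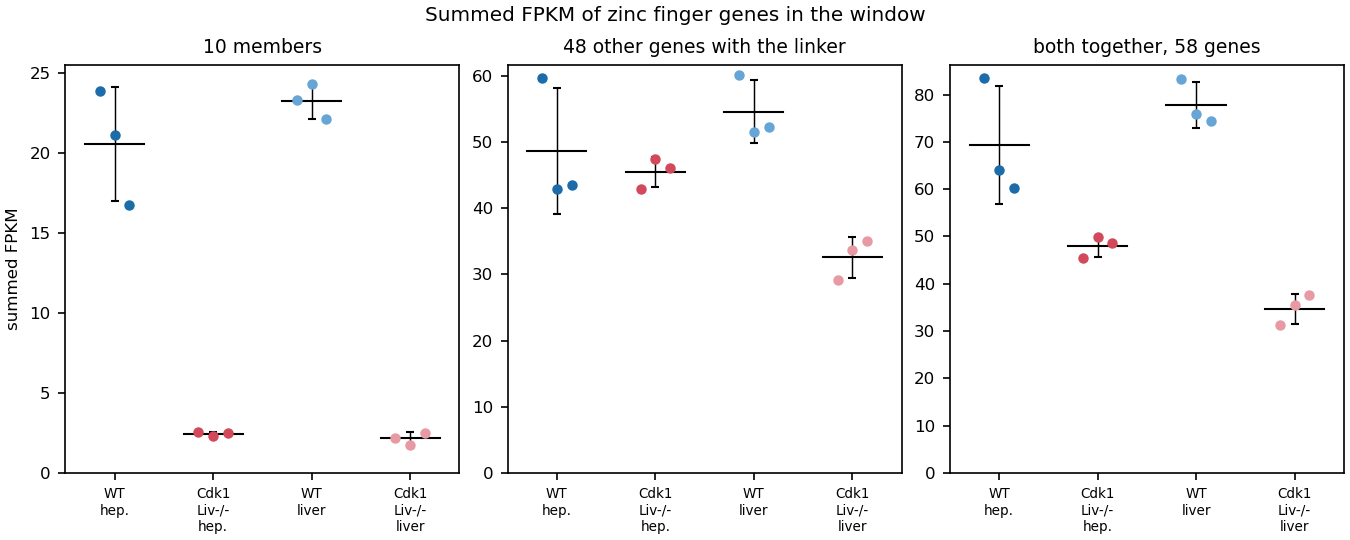
Summed FPKM per library (points) with mean (line) and SD (bar), n = 3, for the 10 members, the 48 other genes of the window with at least 3 linker copies, and all 58. The 3 vertical axes start at 0 and differ in range, and the members' sums of 1.74 to 2.55 in Cdk1 Liv-/- libraries stand against 16.77 to 24.35 in WT libraries.

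Zinc finger genes elsewhere in the genome were counted as well. Of 329 genes tested with a symbol of the form Zfp and a number that lie outside the window, a list made after the values were known, 1 was called lower and 2 higher in each compartment, where 2.17% of all genes tested were called lower and 4.2% higher in hepatocytes and 1% and 4.59% in whole liver. Their medians were 0.10 in hepatocytes and 0.12 in whole liver, beside 0.05 and 0.18 over all genes.

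The genes through which Krüppel-associated box proteins act were also measured, as a list of 23 corepressor, heterochromatin and DNA methylation genes, all of which passed the filter. None was called in either compartment (0 of 23). At an adjusted p of 0.1 without the fold threshold (limma), 2 were lower and 1 higher in hepatocytes, where 6.61% of all genes tested were lower and 12.1% higher, and 1 was lower and 13 higher in whole liver, where the shares were 7.53% and 38%. Trim28, the scaffold that the box recruits, differed by -0.04 and 0.07 (adjusted p = 0.847 and 0.522, limma). Chd3, a remodeller of the NuRD complex, was lower in both compartments (-0.79 and -0.47, adjusted p = 0.0237 and 0.0405, limma), but in whole liver its adjusted p was above 0.1 without Cdk1 Liv-/- replicate 3 (0.101), WT replicate 2 (0.109) or WT replicate 3 (0.106) and with the replicate number as a block (0.117). Uhrf1, which guides DNA methylation to newly replicated DNA, was higher in hepatocytes (0.84, adjusted p = 0.0350, limma), though not past 0.1 without Cdk1 Liv-/- replicate 1 (0.101) or WT replicate 1 (0.115). Without Cdk1 Liv-/- replicate 3 it reached 1.01 (adjusted p = 0.0253, limma) and met the call rule. Cbx5, a heterochromatin protein, and Kdm1a, a histone demethylase, were higher in whole liver (0.49 and 0.48, adjusted p = 0.0116 and 0.00444, limma). Dnmt3b (-0.79 and -0.12, adjusted p = 0.199 and 0.416, limma) and Atf7ip (0.63 in hepatocytes, adjusted p = 0.187, limma) did not pass in the comparisons for which the naming rule took them, although Dnmt3b reached -1.17 in hepatocytes without Cdk1 Liv-/- replicate 2 (adjusted p = 0.0308, limma). Atf7ip was past 0.1 in whole liver (0.37, adjusted p = 0.018, limma). In hepatocytes it was past 0.1 without WT replicate 1 (0.895, adjusted p = 0.0976, limma).

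The genes outside the group whose profile over the 12 libraries was most like the mean of the members were sought by Pearson's r on the log2 scale. They were Cyp2a22 (r = 0.993), Trim5 (0.988), Trim12a (0.986), Gm15135 (0.982) and Trim30d (0.979), and 4 of them lie on chromosome 7. The 12 points are 4 groups that split by genotype without overlap, so r mainly describes that split. Cyp2a22, a cytochrome P450 gene, had means of 142.8 ± 8.56 and 53.2 ± 1.96 FPKM (SD, n = 3) in WT and Cdk1 Liv-/- hepatocytes and 159.3 ± 5.42 and 52.7 ± 7.83 in whole liver. Trim12a, of the tripartite motif family, was at 2.35 to 6.39 in the WT libraries and at 0 to 0.02 in the Cdk1 Liv-/- libraries. Trim5, of the same family and next to it on chromosome 7, was at 0.53 to 1.02 against 0.02 to 0.07.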

How the data were processed

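Polyadenylated RNA of 12 samples was read from 1 end over 75 bp. The authors aligned with STAR (mm10) and quantified genes with RSEM 1.2.31, per the labels and methods, and the deposited FPKM, to 2 decimals, were not normalized between libraries. Their annotation release is not given in the sources used here. Members and lists were chosen with earlier results of these data known. Log2(FPKM + 0.5) of the 17386 genes with a mean of at least 0.1 was tested with limma 3.58.1 in R 4.3.3 (eBayes with trend, two-sided, Benjamini-Hochberg). The genotype fits used the 6 libraries of a compartment and the compartment fit all 12. Calls needed an adjusted p no higher than 0.1 and a log2 difference of 1 or more. The fits were tested on simulated data. Apart from the members and Cdk1, the naming rule took, per compartment, the 2 largest and 2 smallest differences among window genes and among corepressors, and the 5 genes most like the members' mean. Other names were chosen after their values were seen. Depth was estimated from the steps between low FPKM. Labels do not say which samples come from separate animals, so p-values measure the spread between these samples. Sequences came from GENCODE M21 transcripts and RefSeq. Alternatives were the pseudocount, filter, scaling, moderation, replicate block, call rule and each library left out.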

Additional observations from a re-analysis of the deposited data

Results flagged for a closer look

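Among the 41 other genes tested in the window, 4 had genotype effects that differed between hepatocytes and whole liver at an adjusted p of 0.1 (limma interaction in 1 fit of all 12 libraries, chosen after the data were seen), where 2.35% of all genes tested were past it in that direction. All 4 lie outside the row of members, and in whole liver none passed an adjusted p of 0.1. Of the 4, only Gm14403 and Gm14387 were called higher in Cdk1 Liv-/- hepatocytes, and Gm14387 fell to 0.91 without WT replicate 3. Gm14420 had 0.99 there (0.87 to 1.12 with 1 library left out) and Gm14325 0.53, both under the fold threshold of 1. The adjusted p of Gm14325 was 0.0539 (limma). With any 1 hepatocyte library left out it was 0.105 to 0.146, and with the block 0.175. The genotype effect in hepatocytes minus that in whole liver was 1.82 ± 0.25 (SE, log2, adjusted p = 0.0129, limma) for Gm14403, with adjusted p of 0.00843 to 0.0411 over the other settings. It was 1.21 ± 0.25 (adjusted p = 0.0439, range 0.0179 to 0.126, limma) for Gm14387, which was at 0.60, 0.64 and 0.27 FPKM in WT and 1.78, 1.36 and 1.68 in Cdk1 Liv-/- hepatocytes. Gm14420 had 1.05 ± 0.23 (adjusted p = 0.0521, range 0.0362 to 0.151, limma), with 7.04, 4.85 and 5.87 FPKM against 11.84, 13.89 and 10.94. Gm14325 had 0.60 ± 0.17 (0.599, adjusted p = 0.0814, range 0.0668 to 0.192, limma) and lost its call in 10 of 21 settings, 8 of them with 1 library left out. Without WT whole liver replicate 1 the adjusted p was 0.126 for Gm14387, 0.136 for Gm14420 and 0.192 for Gm14325. Gm14420, Gm14403 and Gm14325 carry the 54-base block before their start that 7 members share, as do all 7 genes called lower that have a RefSeq window. In the members the same difference is a description, and it ranged from -0.23 to 0.54 with a median of 0.25.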

How the results depend on the processing

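The members were chosen for their genotype difference, so its sign, which was the same in the settings run, is no sign of stability. Calls depended on the settings. Without a filter, the adjusted p of Chd3 was 0.128 in hepatocytes and 0.164 in whole liver, and that of Uhrf1 0.158 in hepatocytes (limma). With a pseudocount of 0.1 there were 647 genes called lower and 1114 higher in hepatocytes, 280 and 1370 in whole liver and 2073 called between compartments, and other window genes called higher numbered 6 and 2. With a pseudocount of 1 there were 248 lower in hepatocytes, 571 between compartments, 1 window gene higher in hepatocytes and 4 lower in whole liver. By adjusted p alone there were 1149 and 2108 in hepatocytes, 1310 and 6610 in whole liver, 8765 between compartments, 7 window genes higher in hepatocytes, and 13 lower and 6 higher in whole liver. Without a filter there were 92 lower and 452 higher in hepatocytes, 3 window genes lower and 1 higher there, and 0 members past the compartment test (main count 2). A filter at 1 FPKM left 1 window gene higher in hepatocytes, 0 in whole liver and 1 member in the compartment test. Without moderation there were 133 lower in hepatocytes, 3 window genes lower and 1 member. Median-ratio size factors gave 513 higher in whole liver and 1 member. They moved the median of all genes from 0.18 to 0.01 in whole liver and from -0.14 to 0.01 between compartments, and the share of higher calls from 82.1% to 67.9% in whole liver and from 10.9% to 21.8% between compartments. The main counts were 377 and 730 in hepatocytes, 174 and 798 in whole liver and 947 between compartments.

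Leaving out 1 library gave 168 to 592 genes called lower in hepatocytes (592 without WT replicate 2, 168 without WT replicate 1), 4 to 7 window genes lower (4 without Cdk1 Liv-/- replicate 2 or WT replicate 1) and 1 to 2 members in the compartment test. Where 2 members passed, they were not always Gm14440 and Gm14434. Replicate numbers did not pair the samples (correlations of -0.317 to 0.239), and a fit with the replicate block called 197 genes and 4 window genes lower in hepatocytes. Compartment differences near 0 changed sign. Gm14308 came to 0.00283 with a pseudocount of 0.1. Gm14410 came to 0.0496 and Gm14419 to 0.0767 with size factors. Gm14419 came to 0.00415 with a pseudocount of 1 and to 0.00646 with equal sums. With 1 library left out, Gm14295 ranged from -0.26 to 0.0351, Gm14296 from -0.0196 to 0.17, Gm14308 from -0.21 to 0.0883, Gm14410 from -0.21 to 0.0578, Gm14419 from -0.12 to 0.10 and Gm14435 from -0.00379 to 0.20. The whole liver differences of Gm14325 (-0.15 to 0.0134) and Gm14420 (-0.19 to 0.0891) did so as well. The cause was not tested. Depth limits the members in Cdk1 Liv-/- samples, where values of 0.01 to 0.1 FPKM rest on few reads.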

Other observations

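Over all 17386 genes tested, 8 had at least 0.5 FPKM in each of the 6 WT libraries and at most 0.1 in each of the 6 Cdk1 Liv-/- libraries, by limits set after the values were seen. Of these 8, 3 are members, Gm14305, Gm14295 and Gm14296. The others are Trim5 and Trim12a on chromosome 7, Gm15135, the pseudogene RP24-97D9.7 on chromosome 6 and the pseudogene Gm21742, which the annotation places on chromosome Y. Gm21742 was at 3.94 to 10.06 FPKM in the WT libraries and listed at 0 in all 6 Cdk1 Liv-/- libraries, in 5 of which Y-linked genes were expressed. The reverse held for 7 genes, none of them in the window, among them Lif, a cytokine (0.01 to 0.05 against 1.47 to 2.75 FPKM), Cxcl14, a chemokine (0 to 0.07 against 1.3 to 5.28), and C1s2, a complement protease gene (0 to 0.05 against 10.34 to 24.21).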
